A study of Rattus norvegicus with 10 samples.

Results

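The genes described here are 10 genes of the spermatogonial stem cell and of signalling by glial cell line-derived neurotrophic factor (GDNF), namely Gdnf, Gfra1, Ret, Zbtb16, Id4, Nanos2, Nanos3, Etv5, Lin28a and Uchl1. They were chosen by symbol, each was represented by 1 probe set that carried its symbol alone, and they are 10 of the 18166 named genes measured. Levels came from 10 Affymetrix rat arrays, 1 for each testis sample: 4 under-developed testes of obese Zucker rats, 4 normally developed testes of obese Zucker rats and 2 normally developed testes of lean rats. Every sample carries the age of 14 weeks and the fa/fa model, in which the leptin receptor is mutated. This text is the same for the lean rats, whose genotype is therefore not settled here. The labels give no drug treatment, and the RNA was total testis RNA. Replicates are titled as biological, yet the sources do not tie each of them to its own animal. The p-values thus reflect sample-to-sample spread, which may in part be technical.

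Spermatogonial stem cells are the cells of the seminiferous tubule that renew themselves and give rise to all later germ cells. In rodents their renewal depends on GDNF, a secreted factor made by Sertoli cells and by peritubular myoid cells. GDNF binds the co-receptor GFRA1, which is anchored in the membrane of the stem cell, and the pair activates the receptor tyrosine kinase RET. In cultured rodent stem cells the signal raises transcription factors such as ETV5 and ID4 and the RNA-binding protein NANOS2. The remaining genes are in common use as marks of undifferentiated spermatogonia.

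Levels are log2 values deposited after RMA, the method that corrects background, brings the arrays to a common scale and sums up the probes of a probe set, so that a difference of 1 is a 2-fold change. Dimmest of the 10 genes by mean over all arrays were Gdnf (6.03), Nanos3 (6.15), Lin28a (6.15) and Nanos2 (6.21). Their means lay above those of 31.5%, 34.0%, 34.1% and 35.2% of all genes, and no detection call was used. Over all 18166 genes, under-developed replicates 1, 2 and 3 stood apart from the normal testes, and replicate 4 did not. Their mean correlation across genes with the 6 normal arrays was 0.856, 0.946, 0.731 and 0.995 in replicates 1 to 4. The median over all genes of the difference from the normal obese mean was 0.03, −0.02, 0.17 and −0.00486 log2 in these 4 arrays. The array labelled under-developed replicate 4 thus goes against its label over all genes, and whether that label is right cannot be told from the sources used here. The 10 genes were therefore fitted with and without it, a choice made after its values were known. Where cells of a type are lost from a tissue, fewer cells and less RNA per cell cannot be told apart in such arrays.

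Of the 10 genes, Gdnf, Zbtb16 and Uchl1 rose and Gfra1 and Nanos2 fell in the under-developed testes of obese rats, relative to normal testes of obese rats, in the fit without replicate 4. The changes were of 0.34 to 0.96 log2. Ret, Id4, Nanos3, Etv5 and Lin28a did not pass. The share that passed, 5 of 10, lies near the 56.0% of all genes that passed in the same fit (29.6% higher and 26.4% lower), so it is not a property of these genes. The same 5 were those whose values did not overlap between the 3 and the 4 arrays, against 58.5% of all genes (30.7% higher and 27.8% lower), and exact permutation tests gave each p = 0.0571, the smallest that 3 against 4 arrays allow. With all arrays, limma at an adjusted p under 0.05 called 0 of the 10 genes, against 0% of all genes. The lowest limma adjusted p among the 10 was 0.0702, for Nanos2. Without adjustment, 3 of the 10 (Gfra1, Nanos2 and Uchl1) and 8470 of the 18166 genes had p under 0.05.

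The start regions of 4 of the genes that passed are shown, those of the ligand, its co-receptor and the 2 members that changed with the lowest adjusted p, Nanos2 and Uchl1. RefSeq's table for build GRCr8 held such a window, 250 bases before to 50 after the start that the table takes for a gene, for 9 of the 10 genes, and not for Zbtb16. For Gfra1 and Uchl1, and for Nanos3 and Etv5 among those not shown, that start lies inside the outer end of the gene. The outer end is that in RefSeq's gene table of the same build, so other starts are not covered. Each window is written 5′ to 3′ on the strand of the gene, with 2 short motifs in capitals. A TATA box was searched as TATAAA on both strands. A GC box was searched likewise, as GGGCGG. Gdnf lies at chr2:58621077-58621376 on the plus strand, Gfra1 at chr1:267555762-267556061 on the minus strand, Nanos2 at chr1:87763466-87763765 on the plus strand and Uchl1 at chr14:41849368-41849667 on the minus strand.
Gdnf: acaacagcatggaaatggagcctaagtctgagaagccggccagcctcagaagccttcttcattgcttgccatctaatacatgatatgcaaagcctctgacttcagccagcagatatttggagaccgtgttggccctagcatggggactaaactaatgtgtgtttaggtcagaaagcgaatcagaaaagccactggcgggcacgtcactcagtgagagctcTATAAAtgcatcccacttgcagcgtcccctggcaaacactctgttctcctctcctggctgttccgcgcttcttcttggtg
Gfra1: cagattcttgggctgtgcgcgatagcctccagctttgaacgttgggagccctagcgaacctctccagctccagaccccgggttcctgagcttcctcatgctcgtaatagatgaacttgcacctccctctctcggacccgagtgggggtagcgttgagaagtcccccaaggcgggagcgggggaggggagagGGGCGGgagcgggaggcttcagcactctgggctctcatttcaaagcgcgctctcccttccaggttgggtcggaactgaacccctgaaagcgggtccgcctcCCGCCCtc
Nanos2: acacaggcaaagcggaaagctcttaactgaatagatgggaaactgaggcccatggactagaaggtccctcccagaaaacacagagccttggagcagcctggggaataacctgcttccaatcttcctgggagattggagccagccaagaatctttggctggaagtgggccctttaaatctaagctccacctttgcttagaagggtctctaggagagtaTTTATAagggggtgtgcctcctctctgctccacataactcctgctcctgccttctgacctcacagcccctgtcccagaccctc
Uchl1: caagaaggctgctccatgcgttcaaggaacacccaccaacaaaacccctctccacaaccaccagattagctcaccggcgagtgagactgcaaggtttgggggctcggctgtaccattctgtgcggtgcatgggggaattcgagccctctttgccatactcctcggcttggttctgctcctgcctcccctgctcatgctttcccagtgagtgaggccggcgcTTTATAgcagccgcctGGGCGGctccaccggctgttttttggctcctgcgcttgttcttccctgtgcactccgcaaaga
On the strand of the gene, the letters TATAAA begin at position −30 from the table's start of Gdnf. In Nanos2 (from −33) and Uchl1 (from −29) the marked letters read TTTATA, so there TATAAA stands on the opposite strand only. Counted on either strand, TATAAA is found in 14.2% of all 33469 windows of 300 bases in the table. On neither strand is it in the windows of the other 6 genes that had a window. Among the 4 windows shown, a GC box stands in those of Gfra1 (2 matches) and Uchl1 (1 match), and it is found in 33.1% of all windows. Of the windows not shown, those of Id4, Etv5 and Lin28a hold it too. A match describes the sequence only.

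The ligand, Gdnf, rose in under-developed replicates 1 to 3. Its level was 6.39, 6.33, 6.83 and 5.65 in under-developed testes, against 5.81, 5.92, 5.89 and 5.80 in normal obese testes and 5.71 and 5.94 in normal lean testes. Replicates 1 to 3 lay above all 6 normal arrays, while replicate 4 lay below all of them. The fitted difference from normal obese testes was 0.66 ± 0.14 (SE) without replicate 4 (limma adjusted p = 0.00338) and 0.45 ± 0.22 with all arrays (limma adjusted p = 0.137), which became 0.27 when replicate 3 was left out instead. This direction holds on the deposited scale. Without replicate 4 the difference was −0.0992 with arrays centred on ribosomal protein genes, which did not pass (limma adjusted p = 0.499). Centred on Sertoli cell genes it was −0.59 and passed as lower (limma adjusted p = 0.00111). These scalings shift the median gene by −0.70 and −1.19. Relative to the median gene, Gdnf was 0.60 higher on the deposited scale, and a centring leaves this value as it is.

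Gfra1, the co-receptor that marks stem and early progenitor spermatogonia, was lower in all 4 under-developed arrays. Its level was 6.57, 6.44, 6.90 and 6.75 in under-developed testes, against 6.97, 7.001, 6.98 and 6.98 in normal obese testes and 7.06 and 6.92 in normal lean testes. Among the 10 genes it was the one whose values did not overlap between under-developed and normal obese testes with all arrays kept, a pattern seen in 17.8% of all genes (7.44% higher and 10.4% lower). Replicate 3 was close to the normal range, at 6.90 against a lowest normal value of 6.92.

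The normal obese arrays lay close together for Gfra1, at 6.98 ± 0.0145 (SD, n = 4), against 6.67 ± 0.20 (SD, n = 4) in under-developed testes. The fitted difference was −0.31 ± 0.12 (SE) with all arrays, which did not pass (limma adjusted p = 0.0748). Without replicate 4 it was −0.34 ± 0.12 (limma adjusted p = 0.0378), and it was below 0 under each of the 24 alternatives. Some of these, the ribosomal protein and Sertoli centrings, shift the median gene downward, so a lower gene stays lower there by construction. By exact permutation of 4 against 4 arrays, two-sided, p was 0.0286, the smallest that the design allows. Of the 10 genes so tested in this comparison, this was the one at that value.

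Ret, the signalling receptor, did not pass. Its level was 7.35, 6.72, 7.40 and 7.11 in under-developed testes, against 6.78, 6.77, 7.22 and 6.83 in normal obese testes and 7.06 and 6.95 in normal lean testes. Replicates 1 and 3 were above all normal arrays, and replicate 2 was below all of them. The interval of its fitted difference ran from −0.15 to 0.63 with all arrays (limma adjusted p = 0.295) and from −0.17 to 0.68 without replicate 4 (limma adjusted p = 0.290). The all-array difference of 0.24 became 0.38 without replicate 2 and 0.16 without replicate 3. The co-receptor and the receptor therefore had fitted differences of opposite sign, a contrast that was not tested. Both differences were below 0 when arrays were centred on ribosomal protein genes (−0.85 for Gfra1 and −0.29 for Ret) or Sertoli cell genes (−1.26 and −0.71). A centring shifts all genes of an array alike, so the gap between Gfra1 and Ret stayed as it was.

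**Figure D1:**
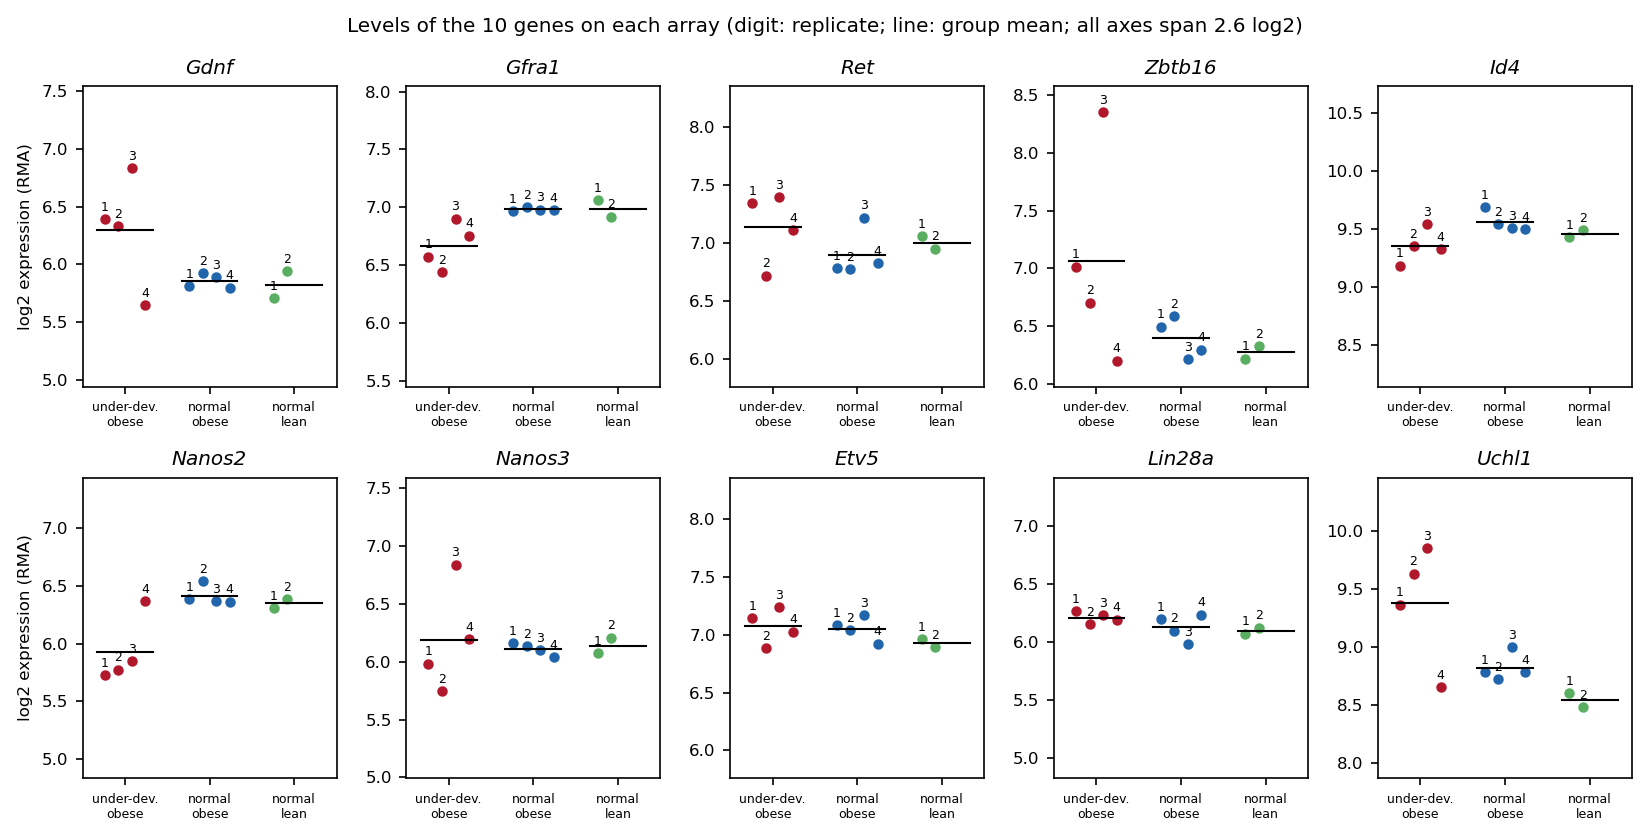
Level of each of the 10 genes on every array, in log2 RMA units, for under-developed obese, normal obese and normal lean testes; the digit is the replicate and the line the group mean. For Gdnf and Uchl1 the under-developed replicates 1 to 3 sit above all normal arrays, for Nanos2 they sit below them, and Zbtb16 reaches 8.35 in replicate 3.

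Nanos2, an RNA-binding protein that in mice keeps spermatogonia undifferentiated, had the lowest adjusted p of the 10 genes. Its level was 5.73, 5.78, 5.85 and 6.37 in under-developed testes, against 6.39, 6.54, 6.37 and 6.36 in normal obese testes and 6.31 and 6.39 in normal lean testes. Replicates 1 to 3 were below every normal array, and replicate 4 was within their range. Without replicate 4 the mean was 5.78 ± 0.0609 (SD, n = 3), against 6.41 ± 0.0857 (SD, n = 4) in normal obese testes, and the gene fell by 0.63 ± 0.0917 log2 (SE, limma adjusted p = 5.75e-04). With all arrays the difference was −0.48 ± 0.15 (limma adjusted p = 0.0702). The sign was kept under each of the 24 alternatives, whose differences ran from −1.89 to −0.28. Under the ribosomal protein and Sertoli centrings among them, which shift the median gene downward, a lower gene keeps its sign by construction.

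Nanos3, a related gene that acts earlier and more widely in the mouse germ line, moved otherwise. Its differences from the normal obese mean were −0.13, −0.36, 0.73 and 0.09 log2, for under-developed replicates 1 to 4. Replicates 1 and 2 were thus below all normal arrays and replicate 3 was above them. Its fitted difference was 0.08 ± 0.21 (SE, limma adjusted p = 0.783), with an interval from −0.39 to 0.55. Without replicate 4 it was also 0.08 (limma adjusted p = 0.791), and without replicate 3 it was −0.13.

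Zbtb16, a zinc-finger repressor needed in mice for the upkeep of the stem cell pool, had the widest span of the 10 genes, 2.15 log2. Its level was 7.01, 6.70, 8.35 and 6.20 in under-developed testes, against 6.50, 6.59, 6.21 and 6.30 in normal obese testes and 6.22 and 6.33 in normal lean testes. Replicates 1 to 3 were above all normal arrays, replicate 3 by far the most, and replicate 4 was just below them. The gene rose by 0.96 ± 0.34 log2 (SE) without replicate 4 (limma adjusted p = 0.0393), against a difference of 0.67 ± 0.39 with all arrays (limma adjusted p = 0.201), which became 0.24 when replicate 3 was left out instead. The call was lost with arrays centred on their median (limma adjusted p = 0.0645) or quantile normalized again (limma adjusted p = 0.0743), and the difference was −0.30 with centring on Sertoli cell genes. The Sertoli centring shifts the median gene by −1.19.

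Uchl1, a deubiquitinating enzyme abundant in neurons and in spermatogonia, rose in the same 3 arrays. Its level was 9.37, 9.63, 9.85 and 8.65 in under-developed testes, against 8.78, 8.72, 9.00 and 8.78 in normal obese testes and 8.60 and 8.48 in normal lean testes. Replicates 1 to 3 were above all normal arrays, and replicate 4 was within their range. The gene rose by 0.80 ± 0.13 log2 (SE) without replicate 4 (limma adjusted p = 0.00114), and the difference was 0.55 ± 0.23 with all arrays (limma adjusted p = 0.0953). Without replicate 4 the difference was 0.0326 with arrays centred on ribosomal protein genes (limma adjusted p = 0.869). Centred on Sertoli cell genes it was −0.46 and passed as lower (limma adjusted p = 0.0165), where 91.1% of all genes passed. These scalings shift the median gene by −0.70 and −1.19. Relative to the median gene, Uchl1 was 0.73 higher on the deposited scale, and a centring leaves this value as it is.

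Id4, a protein that blocks the DNA binding of helix-loop-helix factors and marks stem cells in mice, had a level of 9.18, 9.35, 9.54 and 9.32 in under-developed testes, against 9.69, 9.54, 9.50 and 9.50 in normal obese testes and 9.43 and 9.49 in normal lean testes. Replicates 1, 2 and 4 were below all normal arrays, and replicate 3 was among them. The fitted difference was −0.21 ± 0.11 (SE, limma adjusted p = 0.149), with an interval from −0.44 to 0.03, and −0.20 ± 0.11 without replicate 4 (limma adjusted p = 0.163). Its size depended on the scaling. Without replicate 4 it was −0.0414 with quantile normalization (limma adjusted p = 0.811) and −0.30 with median centring (limma adjusted p = 0.0532). Ribosomal protein centring gave −0.96 (limma adjusted p = 4.43e-04) and Sertoli centring −1.45 (limma adjusted p = 1.68e-05). These 2 centrings shift the median gene by −0.70 and −1.19.

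Etv5, an ETS-family transcription factor without which mice lose their stem cells, and Lin28a, an RNA-binding protein that blocks let-7 microRNAs, varied least. Etv5 spanned 0.36 log2 and Lin28a 0.29 log2 over all 10 arrays. Lin28a was dim, with a mean above that of 34.1% of all genes, and no detection call was used. In under-developed testes Etv5 lay between 6.88 and 7.24, against 6.92 to 7.17 in normal obese testes and 6.89 to 6.96 in normal lean testes. Lin28a lay between 6.15 and 6.26 in under-developed testes, against 5.98 to 6.23 in normal obese testes and 6.07 to 6.12 in normal lean testes. The intervals of their fitted differences, −0.23 to 0.26 for Etv5 and −0.13 to 0.29 for Lin28a, leave out larger changes on the deposited scale only. Centred on Sertoli cell genes, with all arrays, the differences were −0.93 for Etv5 and −0.87 for Lin28a (limma adjusted p = 0.0286 and 0.0305). That centring shifts the median gene by −0.89, and 71.4% of all genes passed under it. Relative to the median gene, Etv5 was at −0.0433 and Lin28a at 0.0212, so neither stood apart from it. Without replicate 4, on the deposited scale, they were 0.0341 and 0.0891 (limma adjusted p = 0.824 and 0.473).

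**Figure D2:**
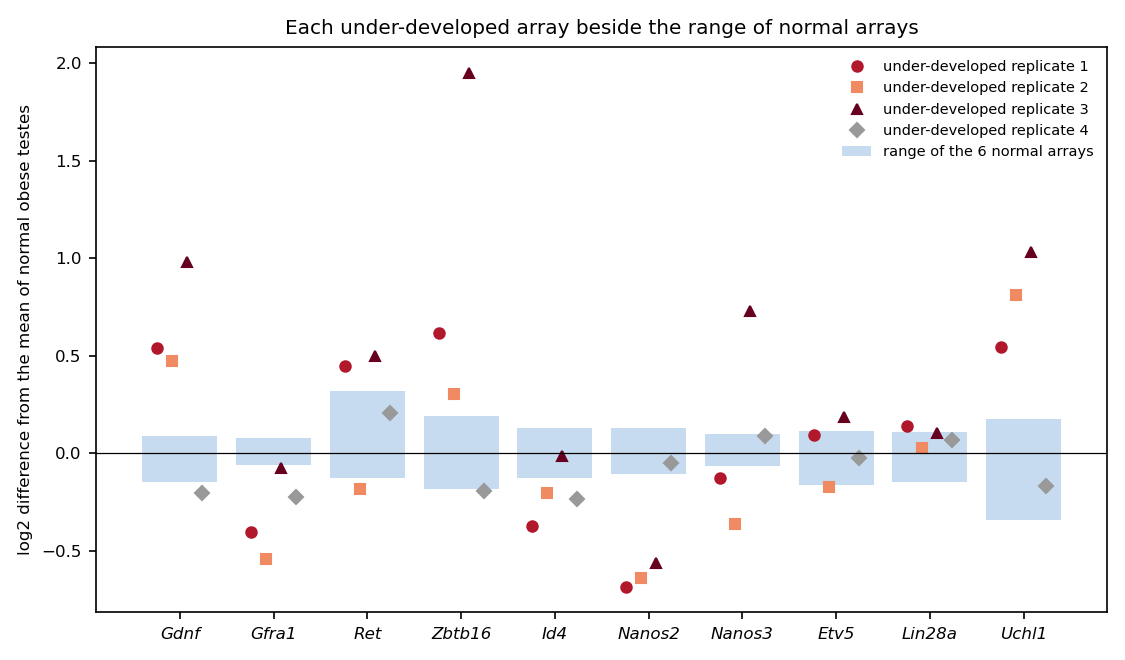
Difference of each under-developed array from the mean of normal obese testes, in log2, for the 10 genes; the blue bars are the range of the 6 normal arrays. Replicates 1 to 3 leave the bar upward for Gdnf, Zbtb16 and Uchl1 and downward for Nanos2, and all 4 replicates lie below it for Gfra1.

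Array by array, under-developed replicate 1 was above all 6 normal arrays for 5 of the 10 genes and below them for 4, replicate 2 for 3 and 6, and replicate 3 for 6 and 2. Over all genes these shares were 40.7% and 37.8%, 34.2% and 38.3%, and 49.5% and 32.0%. Replicate 4 was above for 0 and below for 4 genes, namely Gdnf, Gfra1, Zbtb16 and Id4, against 17.8% and 18.6% of all genes. The array with the least resemblance to normal testes, replicate 3, had the highest values of Gdnf, Ret, Zbtb16, Nanos3, Etv5 and Uchl1 among all 10 arrays. These are the same 6 genes that it had above all normal arrays, where it had 49.5% of all genes. The share of all genes with their highest value in replicate 3 was not counted. Without replicate 4, the median size of the fitted difference was 0.30 log2 for the 10 genes, against 0.47 for all genes.

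**Figure D3:**
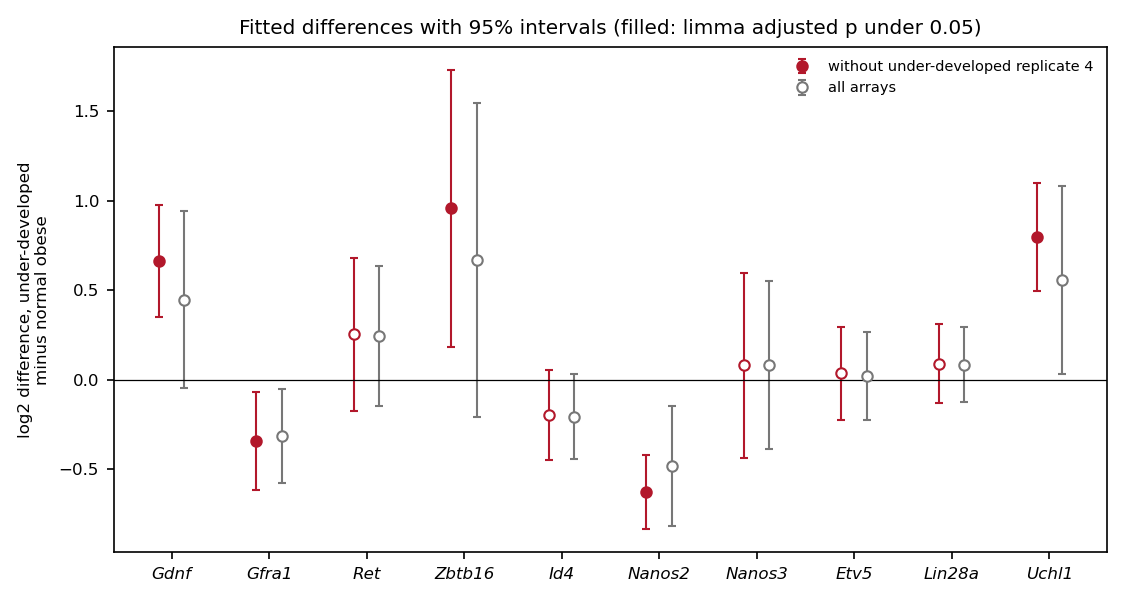
Fitted log2 difference, under-developed minus normal obese testes, with its 95% interval for each gene, without under-developed replicate 4 and with all arrays; filled points passed limma at an adjusted p under 0.05. Of the 10 genes 5 passed without replicate 4 and 0 with all arrays.

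Around these genes, other members of the GDNF family and of the pathway below RET were measured from a list chosen by function (26 of 30 listed genes). Without replicate 4, 12 rose, 3 fell and 11 did not pass, where 56.0% of all genes passed (29.6% higher and 26.4% lower). The median difference was 0.23 log2 against 0.07 for all genes, and with all arrays 0 passed. Among ligands, Nrtn stood 0.06, 0.29, 0.42 and 0.15 log2 above normal obese testes in replicates 1 to 4, and Artn and Pspn did not pass either (limma adjusted p = 0.687 and 0.143 without replicate 4). Among co-receptors, Gfra4 differed by 1.54, 1.37, 2.54 and 5.4e-04, and rose by 1.81 ± 0.26 log2 (SE, limma adjusted p = 5.57e-04 without replicate 4). Gfra2 and Gfra3 did not pass.

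Below the receptor, the phosphatase gene Ptpn11 differed by 2.36, 1.65, 2.66 and −0.30, and the kinase gene Akt1 by 2.44, 1.48, 2.48 and −0.19 log2. Dok5, an adaptor of receptor tyrosine kinases, differed by −3.18, −1.89, −3.03 and −0.00746. These 3 genes had the largest rises and the largest fall in the list, and Nras fell by 0.48 log2 (limma adjusted p = 0.00147). Without replicate 4 the limma adjusted p was 1.04e-04 for Ptpn11, 1.59e-04 for Akt1 and 1.23e-04 for Dok5.

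Genes that respond to GDNF in cultured rodent stem cells did not move together. Of 10 measured, 2 rose (Cxcr4 and Mycn), 3 fell (Lhx1, Egr3 and Tbxt) and 5 did not pass without replicate 4, where 56.0% of all genes passed. Their median difference was 0.09 log2, and with all arrays 0 passed. Bcl6b, a transcriptional repressor, differed by 0.11, 0.06, 0.20 and 0.30 in replicates 1 to 4, and Lhx1, a homeobox factor, by −0.36, −0.37, −0.48 and 0.11. The homeobox factor Pou3f1 differed by 0.35, 0.03, 0.92 and −0.12 (limma adjusted p = 0.0772 without replicate 4). Cxcr4, a chemokine receptor that immune and vessel cells also carry, differed by 1.79, 1.14, 2.10 and 0.12, and rose by 1.68 ± 0.21 log2 (SE, limma adjusted p = 3.03e-04). Tspan8 and Egr2 did not pass.

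Niche factors and their receptors had larger differences than the 10 genes in the same arrays. Of 14 measured, 13 rose, 0 fell and 1 did not pass without replicate 4, where 29.6% of all genes rose, and the median difference was 1.80 log2. Csf1, a colony-stimulating factor made by interstitial cells, differed by 2.88, 2.02, 3.43 and −0.10, and its receptor gene Csf1r, a macrophage gene, by 2.82, 1.61, 2.47 and −0.06. Cxcl12, the ligand of CXCR4, differed by 3.12, 1.77, 2.47 and −0.22. Fgf2, a growth factor that supports stem cells in culture beside GDNF, did not pass, with −0.11, 0.04, 0.48 and −0.17, while its receptor genes Fgfr1, Fgfr2 and Fgfr3 rose by 1.99, 1.34 and 0.39 log2. With all arrays 0 of the 14 passed.

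Other marks of undifferentiated spermatogonia were measured for 17 of 22 listed genes. Without replicate 4, 5 rose (Foxo1, Thy1, Itga6, Itgb1 and Upp1), 2 fell (Lin28b and Epcam) and 10 did not pass, where 56.0% of all genes passed (29.6% higher and 26.4% lower). Their median difference was 0.19 log2, and with all arrays 0 passed. Foxo1, a factor of stem cell upkeep in mice, differed by 0.89, 0.19, 1.10 and −0.15. Lin28b, the paralogue of Lin28a, differed by −0.40, −0.31, −0.31 and −0.16, and fell by 0.34 ± 0.0855 log2 (SE, limma adjusted p = 0.00878). The integrin genes Itga6 and Itgb1, used to enrich stem cells but present on many cells of the testis, rose by 3.34 and 2.46 log2. Taf4b, Pou5f1, Pax7 and Eomes did not pass, and Epcam, an adhesion gene of germ and epithelial cells, fell by 1.22 log2.

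Genes of the next step, differentiating spermatogonia and germ cells at large, were mostly lower. Of 9 measured, 1 rose, 5 fell and 3 did not pass without replicate 4, where 29.6% of all genes rose and 26.4% fell, and the median difference was −1.02 log2. The one that rose was Kit, a receptor of differentiating spermatogonia, of Leydig cells and of mast cells. Dmrtb1, which acts in spermatogonial development in mice, differed by −1.83, −0.58, −1.60 and 0.08. Ddx4 and Dazl, RNA-binding genes of most germ cells, fell by 2.09 and 1.54 log2 (limma adjusted p = 0.0407 and 0.0247), Sohlh1 and Dmrt1 did not pass, and with all arrays 0 of the 9 passed.

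**Figure D4:**
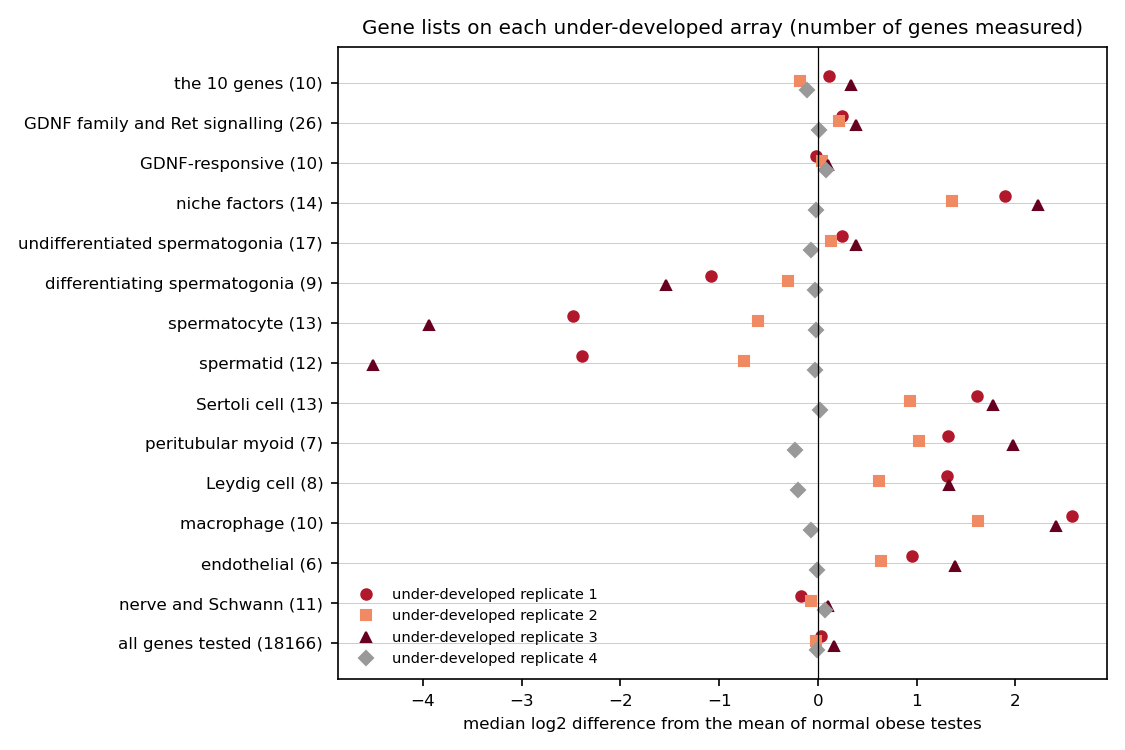
Median log2 difference from normal obese testes for each gene list on each under-developed array, with the number of genes measured in brackets. In replicates 1 to 3 the medians of the 10 genes lie between −0.18 and 0.34, those of the spermatocyte list between −3.94 and −0.61 and those of the niche list between 1.36 and 2.23.

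Markers of the cells that make GDNF were higher in the same arrays. In each count of markers below, replicate 4 is left out, 29.6% of all genes rose and 26.4% fell in that fit, and with all arrays 0 markers passed. The mean level of the Sertoli list (13 genes) ranged from 8.07 to 9.53 in under-developed testes, from 8.0 to 8.10 in normal obese testes and from 7.96 to 8.07 in normal lean testes, and 9 of its genes rose and 1, Amh, fell without replicate 4. The peritubular myoid list (7 genes) ranged from 7.27 to 9.27, against 7.27 to 7.75 in normal obese and 7.11 to 7.17 in normal lean testes, with 6 genes higher. The nerve and Schwann list (11 genes), of cells that could carry Uchl1 or Ret, had a median difference of −0.0954 log2 without replicate 4, with 3 genes higher, 2 lower and 6 that did not pass. Its mean level ranged from 6.17 to 6.37, against 5.98 to 6.13 in normal obese and 6.005 to 6.02 in normal lean testes. Tubb3, S100b and Mbp rose, and Elavl3 and Elavl4 fell.

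Markers of later germ cells were lower in the same arrays. All 13 spermatocyte markers fell without replicate 4, and their mean level ranged from 6.70 to 10.39 in under-developed testes, against 10.35 to 10.45 in normal obese and 10.36 to 10.39 in normal lean testes. Of the spermatid markers, 11 of 12 fell. The Leydig (5 of 8 higher), macrophage (9 of 10 higher, 1 lower) and endothelial lists (6 of 6 higher) moved upward, and of 7 epididymis genes 1 was higher and 1 lower. No marker is listed at 0, since the values are log2 levels and no detection call was used. The part of these cells in the results for the 10 genes was not tested.

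**Figure D5:**
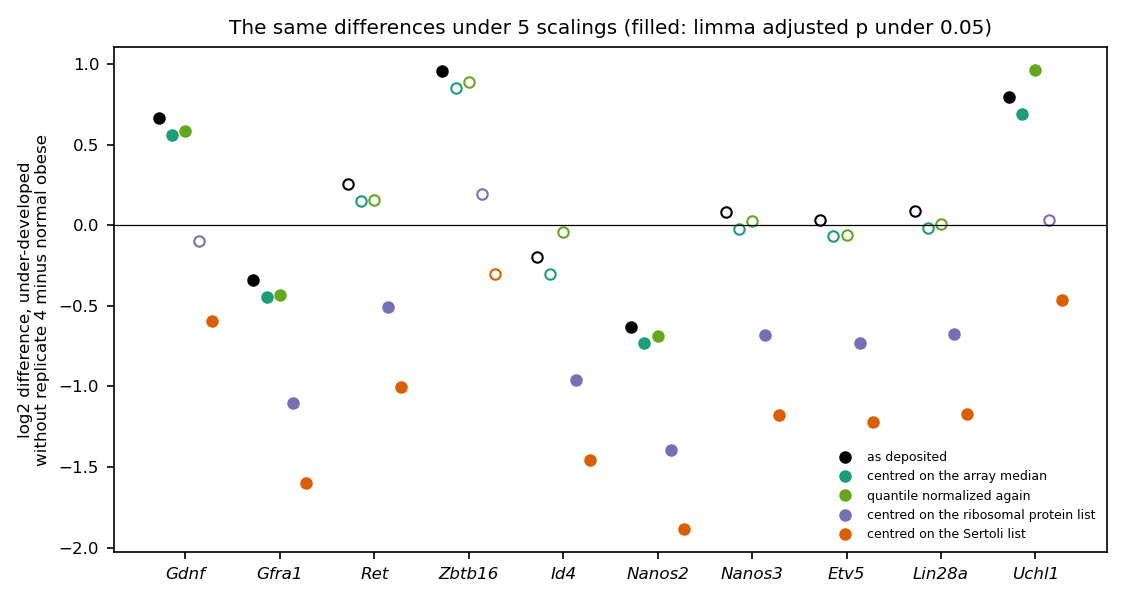
Log2 difference of each gene, under-developed testes without replicate 4 minus normal obese testes, under 5 scalings; filled points passed limma at an adjusted p under 0.05. Gfra1 and Nanos2 stay below 0 and filled under all 5, while Gdnf and Uchl1 pass upward under 3. When arrays are centred on ribosomal protein genes, Gdnf and Uchl1 lie at or below 0.03 and do not pass. Centred on Sertoli cell genes, both pass as lower. Each of these 2 centrings shifts the median gene downward.

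The scaling of the arrays decided the direction of several of the genes. Without replicate 4, centring on the array median called 4 of the 10 genes, 2 higher and 2 lower, where 54.5% of all genes were called. Quantile normalization again called the same number in each direction, where 53.1% were called. Centring on ribosomal protein genes called 7, all lower, where 82.6% of all genes were called, and centring on Sertoli cell genes called 9, all lower, where 91.1% were called. Gfra1 and Nanos2 passed and were lower under each of these scalings. Centring on ribosomal protein or Sertoli cell genes shifts the median gene by −0.70 and −1.19, so a gene that was lower stays lower there by construction. The ribosomal protein list itself rose without replicate 4 (27 of 33 measured genes higher and 1 lower, where 29.6% of all genes rose).

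Obese and lean rats with normally developed testes bear on obesity without under-development. Here limma called 0 of the 10 genes and 0% of all genes, at a lowest adjusted p of 1.00 among the 10. Without adjustment, 0 of the 10 and 80 of all genes had p under 0.05. This fit shares its spread with the under-developed arrays, whose median SD per gene was 0.355, against 0.102 in normal obese and 0.0765 in normal lean testes. Fitted alone, these 2 groups gave 1141 genes at an unadjusted p under 0.05, and array weights gave 1263, with 0 of the 10 genes called at an adjusted p under 0.05 by either. Fitted differences, obese minus lean, ran from −0.10 for Ret to 0.28 for Uchl1, with a median size of 0.08 log2 against 0.07 for all genes. Values did not overlap for Uchl1 and Id4, both higher in obese rats, 2 of 10 genes where 15.0% of all genes did so (7.70% higher). Uchl1 was 8.82 ± 0.12 (SD, n = 4) in normal obese testes, against 8.54 ± 0.0884 (SD, n = 2) in normal lean testes, with an interval of the difference from −0.36 to 0.93 by limma. The SE of that difference, 0.28 in the shared fit, was 0.0942 in the fit of these 2 groups alone (limma adjusted p = 0.770). An exact two-sided permutation test of 4 against 2 arrays cannot go below p = 0.133, the value of both genes.

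Set against normal lean testes, the under-developed testes gave values close to those of the first comparison, which uses the same under-developed arrays. Without replicate 4, limma called Gdnf and Uchl1 higher and Nanos2 lower, 3 of 10 where 48.8% of all genes were called (25.6% higher and 23.2% lower). With all arrays it called 0 of 10 and 0% of all genes, with 2 of the 10 (Nanos2 and Uchl1) and 5776 of all genes at an unadjusted p under 0.05. The differences without replicate 4 were 0.69 ± 0.16 for Gdnf, 1.08 ± 0.16 for Uchl1 and −0.56 ± 0.11 for Nanos2 (SE), with limma adjusted p of 0.00816, 9.38e-04 and 0.00333. Gfra1 and Zbtb16 did not pass, at −0.35 and 1.08 log2 (limma adjusted p = 0.0743 and 0.0542). Values did not overlap with all arrays for 3 genes, Lin28a and Uchl1 higher and Gfra1 lower, against 28.5% of all genes (13.7% higher and 14.7% lower). Without replicate 4 this held for 6 genes, with Gdnf, Zbtb16 and Nanos2 added, against 64.6% of all genes (33.5% higher and 31.2% lower). With 2 lean arrays, exact permutation cannot go below p = 0.133 for 4 arrays or 0.2 for 3.

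Among all named genes, those whose pattern over the 10 arrays was most like that of Gdnf by Pearson's r were Tbcd (0.989), Psmb4 (0.987) and Col15a1 (0.985). For Uchl1 they were Ggta1 (0.979), Hpgd (0.977) and Spint3 (0.970). Zbtb16 was followed most closely by Tmem71 (0.991), Scp2 (0.988) and Tcaf1 (0.986), which share its high value in replicate 3 with differences of 1.15, 1.61 and 1.20 log2 there. Nanos3 was nearest to Arhgef11 (0.980), Gpsm1 (0.978) and Tnrc6b (0.968). The 10 points share their arrays and 3 of them stand apart, so such values describe the likeness only, and the other 6 genes spanned less than 1 log2 and were not compared.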

How the data were processed

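Testis RNA of 10 samples was measured on 10 arrays. The log2 values deposited by the authors were made with RMA, per the submitters' processing notes; its settings, version and genome build are not given in the sources used here, and neither slides nor scan dates entered the fits. Of 36685 probe sets, 18511 carried 1 symbol, 575 several and 17599 none that is known here. RefSeq GRCr8 gave current symbols by gene number (18394 matched). For genes with more than 1 probe set (291), the one with the highest mean was kept, leaving 18166 genes without a filter on dim ones.

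Titles gave the groups. The main test was limma 3.58.1 (lmFit, eBayes; R 4.3.3), fitted once to the 10 arrays with 3 group means, with Benjamini-Hochberg adjustment over all genes and a threshold of 0.05. Each of the 10 genes was also tested in each of 3 comparisons with an exact permutation test (scipy 1.17.1). Lists are described by counts and medians. The number of arrays limits the precision. The members and lists were chosen with earlier results of these data known. Named from each list were the first 6 measured genes and the 2 largest rises and falls, and the 3 most alike genes for members spanning at least 1 log2; the text gives a selection. Genes named beyond this rule complete a count of 5 or fewer and were named after their values were seen. The fit was tested on simulated data with the spread of the normal obese arrays and an equal shift in all under-developed arrays. In the real data the median SD per gene was 0.355 in under-developed and 0.102 in normal obese testes. The simulation therefore does not cover an array such as replicate 4. Alternatives were other scalings, an offset of 50, filters on dim genes, probe-set means, moderation, array weights, 2-group fits, the replicate number as a block, and leaving out each array. Replicate numbers were not used to pair the samples in the main test. Deviations of same-numbered under-developed and normal obese arrays correlated at 0.0771, 0.00692, 0.0237 and 0.26. With same-numbered lean arrays the values were 0.135 and −0.0562 for normal obese and 0.207 and 0.0827 for under-developed arrays. Arrays of different numbers were not compared in this way.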

Additional observations from a re-analysis of the deposited data

Results flagged for a closer look

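Of the 20 groups of 4 arrays looked at, 2 held an array far from the other 3 by Dixon's test, and chance flags about 1 in 20. Ret in normal obese replicate 3 stood at 7.22, against 6.77 to 6.83 in the other normal obese arrays, a gap of 0.883 of the group's range. Nanos2 in normal obese replicate 2 stood at 6.54, against 6.36 to 6.39 in the others, a gap of 0.872 of the range. No explanation of either was tested.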

How the results depend on the processing

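With all arrays, 0 of the 10 genes passed in under-developed minus normal obese testes under most alternatives, but 7 did, all lower, with arrays centred on the Sertoli list and 5 with array weights, the same 5 as without under-developed replicate 4. Leaving out each array in turn gave 0 to 5, and only the fit without under-developed replicate 4 gave more than 0. In combinations chosen after seeing the data, all without that array, 4 passed with median centring, 4 with quantile normalization, 7 with ribosomal protein centring, 9 with Sertoli centring and 3 with the replicate block, where 54.5%, 53.1%, 82.6%, 91.1% and 47.8% of all genes passed. Against normal lean testes 5 passed with array weights, 0 to 3 with an array left out, and in the same order of combinations 4, 4, 7, 8 and 3, where 49.0%, 46.2%, 82.0%, 89.8% and 35.5% of all genes passed. With all arrays 71.4% of all genes passed with Sertoli centring and 54.3% with array weights against normal obese testes, and 53.0% with array weights against normal lean testes. In normal obese minus lean testes 0 passed under all 18 alternatives. A filter on dim genes at the median of all genes left Ret, Id4, Etv5 and Uchl1 and gives no value for the other 6. The replicate block with all arrays called 0 in each comparison; without replicate 4 it lost Gfra1 and Zbtb16 against normal obese testes. With the block the limma adjusted p was 0.0989 for Gfra1 and 0.0938 for Zbtb16. The reason for this loss was not tested. Over all genes, calls without replicate 4 numbered 10171 in under-developed minus normal obese testes, against 0 with all arrays, 12970 with Sertoli centring and 9862 with array weights. Against normal lean testes they numbered 8866 without replicate 4 and 9620 with array weights, against 0 with all arrays. In normal obese minus lean testes array weights and the fit of only those 2 groups each called 1 gene, against 0.

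Signs turned as follows in under-developed minus normal obese testes. With ribosomal protein centring the differences were −0.0881 for Gdnf, −0.29 for Ret, −0.45 for Nanos3, −0.52 for Etv5 and −0.45 for Lin28a, and without replicate 4 −0.0992, −0.51, −0.68, −0.73 and −0.67. With Sertoli centring they were −0.50 for Gdnf, −0.71 for Ret, −0.28 for Zbtb16, −0.87 for Nanos3, −0.93 for Etv5, −0.87 for Lin28a and −0.40 for Uchl1, and without replicate 4 −0.59, −1.004, −0.30, −1.18, −1.22, −1.17 and −0.46. Nanos3 was −0.0562 with array weights and −0.13 to 0.23 with an array left out. Etv5 was −0.0596 with median centring, −0.0486 with quantile normalization and −0.0363 to 0.0822 with an array left out. Without replicate 4, median centring gave −0.0235 for Nanos3, −0.0697 for Etv5 and −0.0148 for Lin28a, quantile normalization −0.0598 for Etv5 and the replicate block −0.0095 for Etv5.

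Against normal lean testes, ribosomal protein centring gave −0.16 for Gdnf, −0.50 for Ret, −0.59 for Nanos3, −0.49 for Etv5 and −0.53 for Lin28a, and without replicate 4 −0.17, −0.72, −0.82, −0.71 and −0.75. Sertoli centring gave −0.50 for Gdnf, −0.84 for Ret, −0.18 for Zbtb16, −0.92 for Nanos3, −0.83 for Etv5, −0.86 for Lin28a and −0.14 for Uchl1, and without replicate 4 −0.59, −1.13, −0.20, −1.23, −1.12, −1.16 and −0.21. Nanos3 was −0.0432 with median centring, −0.0868 with array weights, −0.0933 with the replicate block and −0.16 to 0.20 with an array left out, and without replicate 4 −0.0706 with median centring and −0.11 with the replicate block. Leaving out replicate 3 gave 0.30 for Gdnf and 0.37 for Zbtb16, against 0.48 and 0.79 with all arrays. Lin28a was −0.00173 with median centring and Id4 0.031 with quantile normalization, both without replicate 4. In normal obese minus lean testes, ribosomal protein centring gave −0.075 for Gdnf, −0.0056 for Id4, −0.0378 for Nanos2 and −0.0763 for Lin28a. Leaving out an array gave −0.0863 to 0.15 for Gdnf, −0.0777 to 0.063 for Gfra1, −0.0989 to 0.0368 for Nanos3 and −0.00717 to 0.0785 for Lin28a. A centring shifts all genes of an array alike, which by construction turned the signs under it. For the others the cause was not tested.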

Other observations

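The windows at the table's gene starts differed widely in base composition, given here as values. In the 9 windows of 300 bases, the dinucleotide CG occurred 1 time each for Nanos2 and Nanos3, 8 times each for Gdnf and Lin28a, 14 times for Uchl1, 19 for Gfra1, 35 each for Ret and Id4 and 36 for Etv5, against a median of 7 over all 33469 windows. The 2 Nanos windows had more CG than 5.47% of all windows, and the Etv5 window more than 94.6%. For Nanos3 and Etv5 the table's start lies inside the outer end of the gene, so other starts are not covered. The letters CCGGAA, the core bound by ETS factors such as ETV5, were in 0 of the 9 windows and in 15.0% of all windows, which says only that these letters are not in these windows. CANNTG, an E-box, was in the windows of Gdnf, Ret, Nanos3 and Etv5 and in 72.1% of all windows, and TGACGT was in the window of Gdnf and in 7.94% of all windows, both counted on both strands.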
